A study of Mus musculus with 8 samples.

Results

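The metalloproteinases that cut extracellular matrix and cell-surface proteins were followed, together with their inhibitors, in retinoic acid (RA)-treated mouse embryonic fibroblasts (MEFs). Members were matched by gene symbol, under a rule set with earlier results of these data known. They were the matrix metalloproteinases (Mmp), the ADAM and ADAMTS proteases with the ADAMTS-like proteins, and the tissue inhibitors Timp1 to Timp4. Bmp1, Tll1, Tll2, Mme and Reck were also included. This gave 86 of the 22200 genes in the table. Of these, 55 had a mean of at least 10 normalised reads over the libraries and were tested, while 31 did not, with means from 1.34 to 9.88.

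The cells were immortalised MEFs of the TAF4-/- genotype on a C57BL/6 background, and there were 8 polyadenylated RNA libraries. TAF4 belongs to TFIID, the general factor that binds core promoters. The libraries fell into 3 groups: untreated cells at 12 h (3 libraries), cells given RA for 12 h (3 libraries) and cells given RA for 72 h (2 libraries). All groups shared the genotype, which was made by Cre deletion of a floxed allele in 1 MEF line, so no TAF4-expressing control and no second line entered any comparison. Titles carry cl1, close to the name the study gives its TAF4-expressing parental line, and the genotype label was followed. No untreated library of 72 h was among the samples, so RA and time in culture cannot be told apart at that time. Nothing states whether replicates were separate cultures, and p-values then measure only the spread between these libraries, which may be technical.

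Metalloproteinases use a catalytic zinc ion to cut proteins outside the cell or at its surface. MMPs are made as inactive precursors and remodel collagens, proteoglycans and other matrix proteins. ADAMs are mostly membrane-bound and release ectodomains of growth factors and receptors, while secreted ADAMTS proteases process procollagens and cut large proteoglycans such as aggrecan and versican. TIMPs bind the active site of these enzymes, so a fibroblast's capacity to turn over its matrix depends on the protease and inhibitor pools together. Many inducible MMP genes of fibroblasts are controlled through AP-1 sites close to their start, and retinoids are known to affect their transcription.

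Fibroblast markers were checked first. Collagen I and III, vimentin and fibronectin transcripts were abundant, but 3 of 12 markers on the list (Thy1, Dcn and Lum) had means below 10. Markers also changed with treatment: Pdgfra was called higher at 12 h (log2 change 1.49, adjusted p = 2.67e-06) and Col3a1 lower at 72 h (-1.43, adjusted p = 8.25e-06), and their part in the members' values was not tested. Normalised reads of Taf4a, the targeted gene, lay between 984 and 1449 across the 8 libraries. These totals cannot check the genotype, because they do not show whether reads fell in the deleted part. Libraries also differed within groups along 1 axis that held 50.1% of the within-group variance and follows no label. RA 72 h replicate 1, untreated replicate 3 and the RA 12 h replicates other than replicate 3 lay on one side, and the remaining libraries on the other. Across the 55 tested members, Spearman's rho between a library's deviation from its group and the gene's genomic span ran from -0.482 to 0.483. Over all 12503 tested genes with a known span it ran from -0.277 to 0.3. Both are descriptions over genes that share a library. The groups compared did not overlap for any of the 14 calls described for members below, so their direction within each side was fixed in advance. Of these calls 12 were at least 2-fold on both sides, where some groups had only 1 library on a side. The exceptions were Adam8 at 12 h (log2 change -0.96 and -1.48) and Adamtsl3 at 72 h (-1.27 and -0.85).

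Expression of the family was dominated by inhibitors and a few proteases. Means were at least 1000 normalised reads for 9 members, between 100 and 1000 for 17, and between 10 and 100 for 29. By normalised reads alone the order began with Timp3 (mean 11571), Timp1 (7732), Adamts1 (4759), Adam9 (3232) and Mmp14 (2525). Per kb of exon, which applies to reads from fragmented RNA (the study's methods) but not to short tags beside a cut site (the labels), the highest mean level was that of Timp1 (8707 normalised reads per kb), followed by Timp3 (1421), Mmp14 (972), Adamts1 (898), Adam9 (806), Mmp3 (650.2), Timp2 (592) and Adam10 (324). Mmp14, a membrane-type MMP that cleaves collagen and activates pro-MMP2, had the highest level of the MMPs on that scale, and Adam9 that of the ADAMs. Of 30 ADAM genes 14 were tested (many ADAMs are known as testis genes), against 16 of 19 ADAMTS and 13 of 23 MMP genes.

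In the comparison of RA 12 h with untreated cells, 4 of 55 tested members (7.27%) were called, where 1.42% of all 12673 genes tested were. A gene was called when its adjusted limma p was below 0.05 and its change at least 2-fold. Mmp3, Mmp10 and Mmp1b rose (3 higher, against 1.11% of all genes) and Adam8 fell (1 lower, against 0.308%). Mmp1b met the minimum mean for testing only through its RA libraries. With RA 72 h against untreated cells 6 members (10.9%) were called, against 3.67% of all genes. Here Mmp1b and Adamts9 rose (2 higher, against 2.15% of all genes), while Adam8, Adamtsl3, Mme and Tll1 fell (4 lower, against 1.52%). Between 72 h and 12 h of RA, 4 members (7.27%) were called against 1.5% of all genes, with Adamts9 higher (1, against 0.765%) and Mmp3, Mmp10 and Mme lower at 72 h (3, against 0.734%). The first 2 comparisons share the untreated libraries, and each shares a group with the last.

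**Figure D1:**
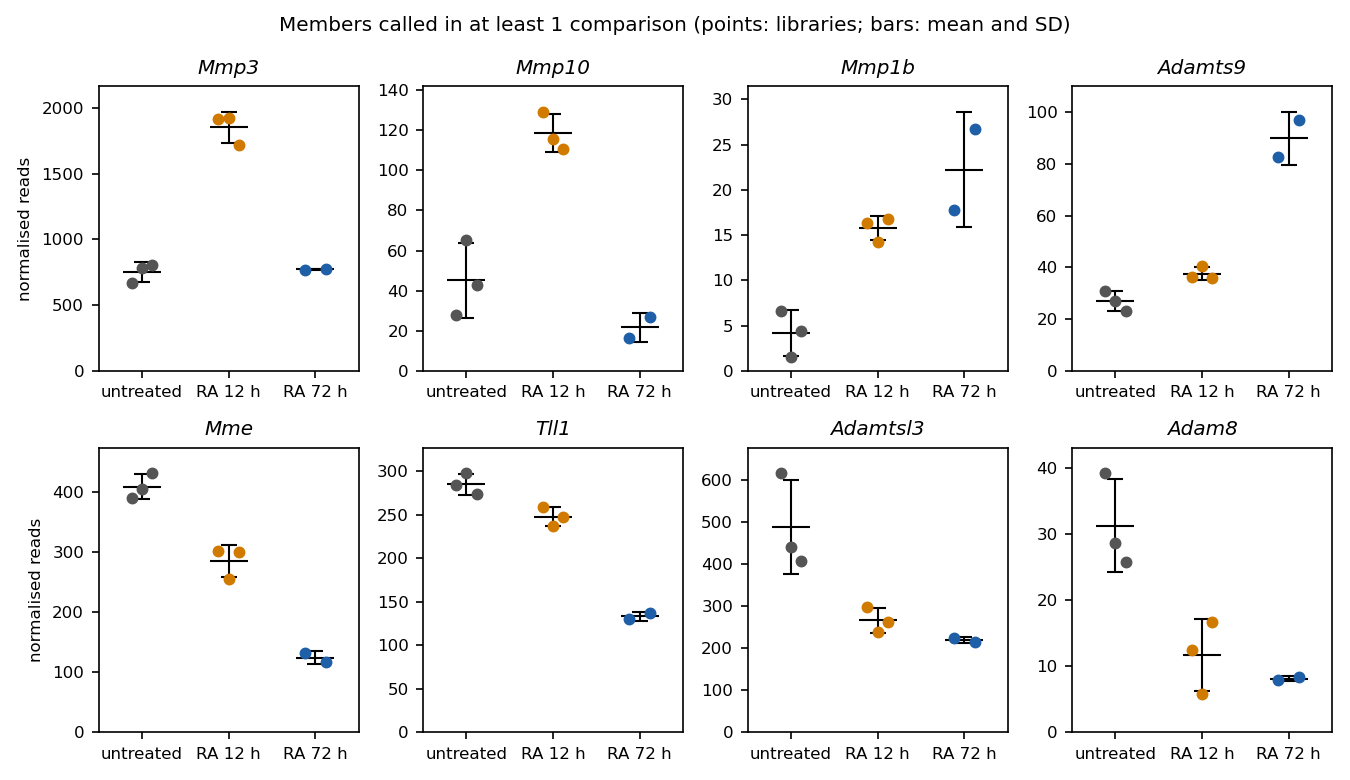
Normalised reads (y axis, from 0) of the 8 members called in at least 1 comparison, in untreated, RA 12 h and RA 72 h libraries; points are libraries and bars the group mean and SD. Mmp3 and Mmp10 are high at 12 h alone, Mmp1b is high at both times, Adamts9 is highest at 72 h, and Mme and Tll1 are lowest at 72 h.

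Without the fold minimum, 12 of the 55 tested members passed the adjusted p at 12 h, where 4.37% of all genes did. These were 4 higher (7.27% of the tested members, against 2.87% of all genes) and 8 lower (14.5%, against 1.5%). At 72 h 11 of the 55 passed, where 11.5% of all genes did, with 3 higher (5.45%, against 6.08%) and 8 lower (14.5%, against 5.41%). In the comparison of 72 h with 12 h 6 of the 55 passed, where 5.84% of all genes did, with 2 higher (3.64%, against 2.92%) and 4 lower (7.27%, against 2.92%). The median log2 change of the tested members was -0.11 at 12 h and -0.10 at 72 h against untreated, beside -0.02 over all genes in both. Group values did not overlap for 26 members at 12 h (47.3%, against 20% of all genes) and for 22 at 72 h (40.0%, against 36.6%). Between 72 h and 12 h this held for 22 members (40.0%, against 37.3%).

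**Figure D2:**
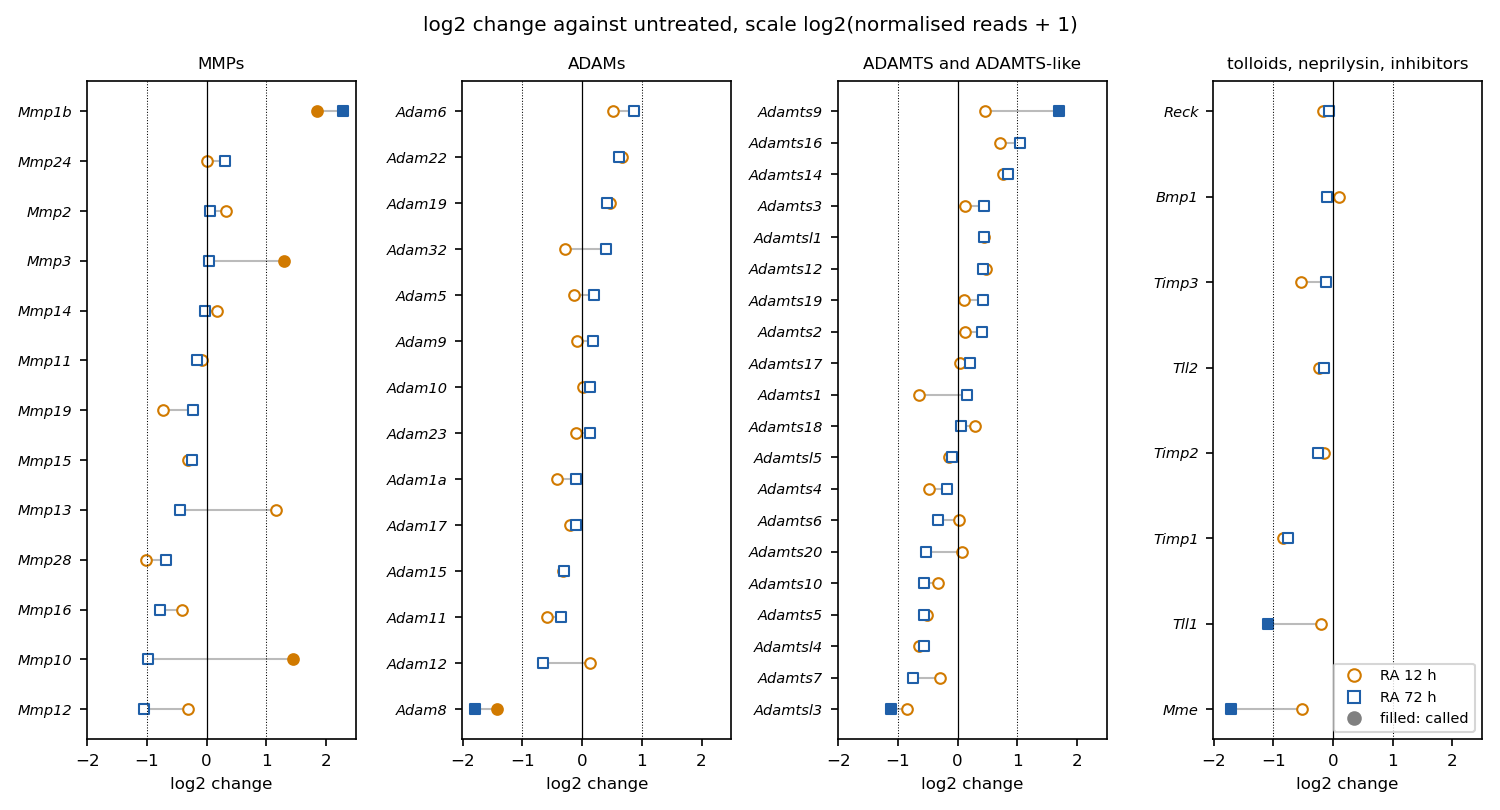
The log2 change against untreated, on the scale log2(normalised reads + 1), of the 55 tested members by family, at RA 12 h (circles) and RA 72 h (squares); filled symbols were called and dotted lines mark a 2-fold change. Mmp3 (1.30 at 12 h, 0.04 at 72 h) and Mmp10 (1.45 and -0.98) lie far apart between the 2 times, while Mmp1b (1.84 and 2.29) and Adam8 (-1.43 and -1.80) lie on the same side at both.

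The 3 MMP genes that rose at 12 h all lie in the MMP cluster of chromosome 9. The cluster holds 10 members over 427 kb (mm9, chr9:7272514-7699585), in the order Mmp13, Mmp12, Mmp1b, Mmp3, Mmp1a, Mmp10, Mmp8, Mmp27, Mmp20 and Mmp7. This grouping was chosen after the values were seen. Of its genes 5 were tested and 3 were called higher at 12 h, where 1.11% of all genes were, while the other 5 had means below 10. Of the 3, Mmp1b reached a mean of 10 only through its RA libraries.

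Promoters of the 3 cluster genes called higher at 12 h are shown, with that of Mmp13, which did not pass the test. These were picked by their 12 h values, and the promoters of the other cluster genes are not printed. The 250 bases before the RefSeq start (GRCm38.p6) are printed 5′ to 3′ on the strand of each gene, with the AP-1 motif TGACTCA, or its reverse complement TGAGTCA, in capitals. These are Mmp3 (plus strand, chr9:7445572-7445821), Mmp10 (plus strand, chr9:7502092-7502341), Mmp1b (minus strand, chr9:7388027-7388276) and Mmp13 (plus strand, chr9:7272264-7272513).
Mmp3: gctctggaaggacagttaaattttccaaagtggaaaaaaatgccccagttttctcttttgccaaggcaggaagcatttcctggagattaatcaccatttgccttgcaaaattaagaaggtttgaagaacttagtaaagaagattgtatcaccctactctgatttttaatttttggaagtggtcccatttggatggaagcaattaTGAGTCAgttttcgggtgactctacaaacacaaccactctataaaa
Mmp10: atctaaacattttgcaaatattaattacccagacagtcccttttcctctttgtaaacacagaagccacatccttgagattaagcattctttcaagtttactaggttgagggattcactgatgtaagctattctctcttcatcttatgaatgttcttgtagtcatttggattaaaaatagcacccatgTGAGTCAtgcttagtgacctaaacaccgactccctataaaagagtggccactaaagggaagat
Mmp1b: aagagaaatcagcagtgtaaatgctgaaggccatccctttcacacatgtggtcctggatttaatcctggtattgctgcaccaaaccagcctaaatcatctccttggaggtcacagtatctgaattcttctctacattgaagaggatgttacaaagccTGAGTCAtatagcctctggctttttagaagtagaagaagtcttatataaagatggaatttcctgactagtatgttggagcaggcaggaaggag
Mmp13: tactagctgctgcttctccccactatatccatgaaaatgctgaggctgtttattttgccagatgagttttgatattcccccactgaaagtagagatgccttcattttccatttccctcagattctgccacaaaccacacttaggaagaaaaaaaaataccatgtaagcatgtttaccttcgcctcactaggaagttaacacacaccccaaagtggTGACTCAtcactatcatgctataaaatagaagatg

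The motif began 46 bases before the start in Mmp3, 63 in Mmp10, 93 in Mmp1b and 35 in Mmp13. On either strand of the 300-base windows (250 before to 50 after the start), TGACTCA was present in 7 of the 10 cluster genes (70.0%), in 11 of the 53 members with a window (20.8%) and in 5.95% of 27025 genes with a window. TATAAA was present in 9 of the 10 cluster genes, 24.5% of members and 15.7% of all genes. The retinoid receptor half-site AGGTCA was present in 4 of the 10, in 17.0% of members and in 18.1% of all genes. No TGACTCA match overlapped a match of another motif in the windows printed. TGACTCA was also present in cluster genes that did not rise (Mmp12) or were near the floor of the table (Mmp1a and Mmp7). For Mmp12 it was in the window starting at chr9:7347124 but not in that starting at chr9:7344147 (GRCm38.p6). Of the 8 members called in any comparison 4 had it, among them Mme, which lies outside the cluster and was called lower at 72 h.

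Mmp3 encodes stromelysin-1, which degrades proteoglycans, fibronectin and laminin and activates other pro-MMPs. Its normalised reads were 668, 784 and 805 in untreated cells, 1918, 1920.0 and 1716 at RA 12 h, and 768 and 774 at RA 72 h. The 12 h libraries all lay above the others, and the 72 h libraries lay within the untreated range. The change at 12 h was 2.46-fold (log2 change 1.30, SE 0.10, adjusted p = 4.48e-06), and from 12 h to 72 h the log2 change was -1.26 (SE 0.11, adjusted p = 4.26e-05). At 72 h against untreated it was 0.04 (95% interval -0.21 to 0.29). In these bulk libraries, fewer cells of a type and less RNA per cell cannot be told apart.

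Mmp10, the stromelysin-2 gene, also had its highest values at 12 h. Untreated libraries had 27.8, 65.1 and 42.8 normalised reads, RA 12 h libraries 129, 116 and 111, and RA 72 h libraries 16.5 and 26.9. The 12 h values did not overlap either other group, and both 72 h values lay below every untreated value. Mmp10 rose 2.73-fold at 12 h (log2 change 1.45, SE 0.28, adjusted p = 0.00715) and fell by 2.43 on the log2 scale from 12 h to 72 h (SE 0.31, adjusted p = 0.000448). Its log2 change at 72 h against untreated was -0.98 (SE 0.31, adjusted p = 0.0606). Without RA 12 h replicate 1 the call at 12 h was lost (1.39, adjusted p = 0.0516), and without untreated replicate 1 Mmp10 was called lower at 72 h (-1.28, adjusted p = 0.0171). Mmp3 and Mmp10 are close paralogs, and how reads shared between them were counted is not given in the sources used here. The remaining stromelysin by name, Mmp11 (stromelysin-3), lies elsewhere in the genome and had a log2 change of -0.07 at 12 h (95% interval -0.32 to 0.18).

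Mmp1b is a mouse counterpart of human MMP1, the interstitial collagenase, and RNA levels do not show whether its product cuts collagen. Its normalised reads were 6.63, 1.5 and 4.38 in untreated cells, 16.4, 14.3 and 16.8 at 12 h and 17.8 and 26.8 at 72 h. Every RA library lay above every untreated one, but levels were low throughout. Its untreated mean was 4.17, and it met the mean of 10 needed for testing only through its RA libraries. Being tested therefore depended on the rise itself. The log2 change was 1.84 at 12 h (SE 0.42, adjusted p = 0.0218) and 2.29 at 72 h (SE 0.47, adjusted p = 0.00562). The 12 h call was lost with each RA 12 h replicate left out in turn (adjusted p = 0.104, 0.0873 and 0.0709), and the 72 h call without RA 72 h replicate 2 (2.0, adjusted p = 0.0801). Its paralog Mmp1a lay near the floor. In the mm9 annotation the end of Mmp1b (minus strand, chr9:7368239-7388047) overlaps the end of Mmp12 (plus strand, chr9:7344381-7369499), and reads from the overlap cannot be told apart unless strand was used.

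Mmp13 and Mmp12 were chosen for description after their values were seen, and neither passed the test. For Mmp13 (collagenase-3), normalised reads were 16.6, 24.0 and 5.63 in untreated cells, 30.9, 26.9 and 35.4 at 12 h, and 9.88 and 9.13 at 72 h. Its 12 h values lay above the others without overlap, with a log2 change of 1.16 at 12 h (SE 0.41, adjusted p = 0.162) and of -1.60 from 12 h to 72 h (SE 0.46, adjusted p = 0.0611). For Mmp12 (macrophage elastase), the log2 change was -0.32 at 12 h (SE 0.39, adjusted p = 0.729) and -1.05 at 72 h (SE 0.44, adjusted p = 0.158).

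**Figure D3:**
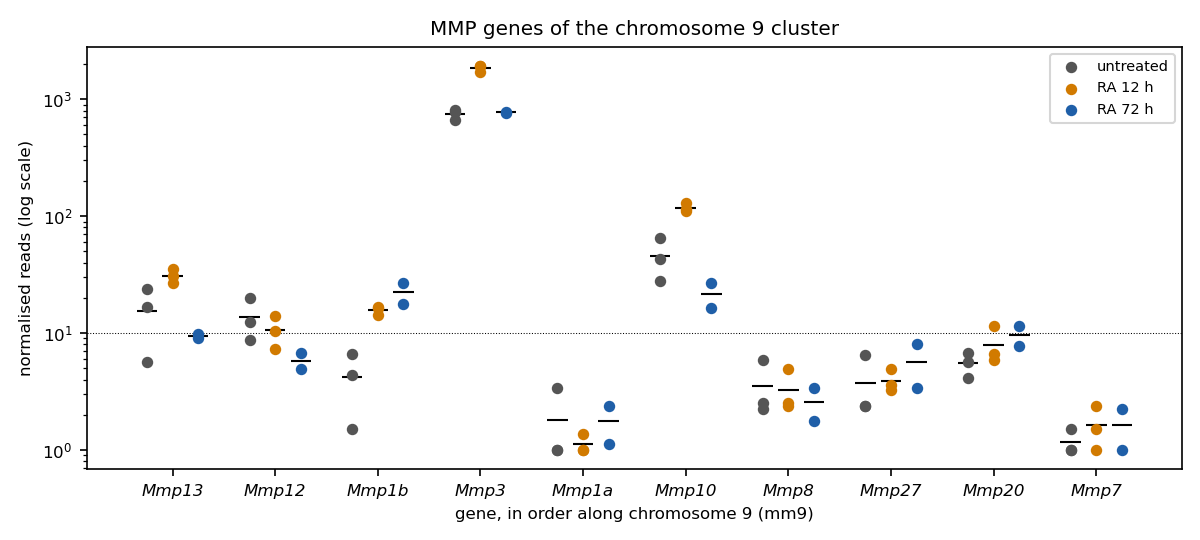
Normalised reads (y axis, log scale) of the 10 MMP genes of chromosome 9, in their order along the chromosome; points are libraries, short bars are group means, and the dotted line marks the mean of 10 needed for testing. Mmp3, Mmp10 and Mmp13 each have their 12 h libraries above the other groups, Mmp1b has both RA groups above untreated, and the 5 genes not tested stay below 12 normalised reads.

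Among the MMPs outside the cluster, 2 passed the adjusted p and neither reached 2-fold. Mmp19, a secreted MMP of basement membrane substrates, had 292, 256 and 221 normalised reads in untreated cells, 136, 145 and 180.3 at 12 h and 190.3 and 248 at 72 h. It was lower at 12 h (log2 change -0.73, SE 0.16, adjusted p = 0.0156), which was lost without untreated replicate 1 (-0.63, adjusted p = 0.105) or RA 12 h replicate 1 (-0.65, 0.0939) or 2 (-0.69, 0.0946). At 72 h its values overlapped the untreated ones (-0.23, 95% interval -0.61 to 0.15). Mmp16, a membrane-type MMP, had 647, 679 and 777 normalised reads in untreated cells, 551, 521 and 494 at 12 h and 440.3 and 376 at 72 h. It was lower at 72 h (log2 change -0.78, SE 0.12, adjusted p = 0.00105), and its value at 12 h was -0.42 (adjusted p = 0.0509). Mmp14 had group means of 2428 ± 137 (SD, n = 3), 2723 ± 52.3 (n = 3) and 2374 ± 155 (n = 2), with a log2 change of 0.17 at 12 h (95% interval -0.03 to 0.36).

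Of the 14 ADAMs tested, Adam8 alone passed in either comparison with untreated cells. Adam8 is a sheddase best known from leukocytes. Its normalised reads were 39.3, 28.8 and 25.9 in untreated cells, 12.5, 5.88 and 16.8 at 12 h and 7.88 and 8.38 at 72 h, so every RA library lay below every untreated one. Adam8 fell by 1.43 on the log2 scale at 12 h (SE 0.36, adjusted p = 0.0406) and by 1.80 at 72 h (SE 0.40, adjusted p = 0.0101). Both calls were fragile: the one at 12 h was lost when any of 6 libraries was left out: untreated replicate 1 (-1.26, adjusted p = 0.213) or 2 (-1.48, 0.0853), RA 12 h replicate 1 (-1.53, 0.104) or 2 (-1.04, 0.191), RA 72 h replicate 1 (adjusted p = 0.0508) or 2 (0.0518). The one at 72 h was lost without untreated replicate 1 (-1.63, adjusted p = 0.0548) or RA 72 h replicate 1 (-1.76, 0.0753) or 2 (-1.84, 0.0556). The summed leukocyte markers (8 of 9 in the table, 2 of them tested and 0 called) were 71.8 to 115 normalised reads in untreated, 76.1 to 85.2 in RA 12 h and 73.4 to 91.2 in RA 72 h libraries, with means of 9.42 for Ptprc and 9.58 for Csf1r. Their part in the Adam8 values was not tested.

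Adam9 and Adam10 were the ADAMs among the 10 members with the highest means. Adam10, which cleaves Notch and cadherins, had means of 1551 ± 118, 1570.4 ± 85.9 and 1706 ± 51.2 normalised reads (SD, n = 3, 3 and 2). Its log2 change was 0.02 at 12 h (95% interval -0.19 to 0.23) and 0.14 at 72 h (-0.09 to 0.37). Adam9 had a log2 change of -0.09 at 12 h (-0.36 to 0.19) and of 0.19 at 72 h (-0.11 to 0.50).

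ADAMTS genes moved in both directions. Adamts9, whose product cuts versican and aggrecan, had 31.0, 26.9 and 23.3 normalised reads in untreated cells, 36.1, 40.4 and 36.0 at 12 h and 82.6 and 97.1 at 72 h. The 3 groups did not overlap, and values rose in the order untreated, RA 12 h, RA 72 h. Its log2 change was 0.46 at 12 h (SE 0.20, adjusted p = 0.257), 1.70 at 72 h (SE 0.22, adjusted p = 0.000199) and 1.24 from 12 h to 72 h (SE 0.22, adjusted p = 0.00494). Leaving out RA 72 h replicate 2 ended the last call (1.12, adjusted p = 0.0862), as did subtraction of a read background over long genes (1.98, with an adjusted p above the threshold).

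Adamts1 and Adamts5 are proteoglycan-cleaving neighbours on chromosome 16, with start sites 98 kb apart in mm9. Adamts1 had 5726, 5811 and 4445 normalised reads in untreated cells, 3105, 3337 and 3709 at 12 h, and 5061 and 6880.4 at 72 h. It was lower at 12 h (log2 change -0.65, SE 0.14, adjusted p = 0.0146) and higher at 72 h than at 12 h (0.81, SE 0.15, adjusted p = 0.00725), where its values overlapped the untreated range. Neither result held with every library left out in turn. The first was lost without untreated replicate 1 (-0.59, adjusted p = 0.0933) or 2 (-0.58, 0.0565) and without RA 12 h replicate 1 (-0.59, 0.0931) or 2 (-0.64, 0.083). The second was lost without RA 72 h replicate 2 (0.58, adjusted p = 0.128) and reached 2-fold without RA 72 h replicate 1 (1.03). Adamts5, a main aggrecanase of cartilage, had 2139, 2316 and 2249 normalised reads in untreated cells, 1537, 1616 and 1534.5 at 12 h and 1465 and 1557 at 72 h. Its log2 change was -0.52 at 12 h (SE 0.09, adjusted p = 0.0034) and -0.56 at 72 h (SE 0.10, adjusted p = 0.00216). The value from 12 h to 72 h was -0.05 for Adamts5 (95% interval -0.26 to 0.17), an interval that does not overlap that of Adamts1 (0.47 to 1.14).

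Adamts14, one of the 3 procollagen N-proteinases, passed the adjusted p in the other direction. Its normalised reads were 46.0, 43.1 and 31.0 in untreated cells, 68.0, 59.6 and 75.8 at 12 h, and 67.9 and 76.0 at 72 h, with log2 changes of 0.76 (SE 0.20, adjusted p = 0.0469) and 0.85 (SE 0.22, adjusted p = 0.0236). The pass at 12 h was lost with any of the 8 libraries left out (adjusted p from 0.0637 to 0.168), and the one at 72 h without RA 72 h replicate 1 (0.93, adjusted p = 0.0942) or 2 (0.77, 0.152). Adamts10, a protease linked to fibrillin microfibrils, was lower at 72 h (-0.56, SE 0.14, adjusted p = 0.0192), a pass that was lost without untreated replicate 1 (-0.57, adjusted p = 0.0547) or RA 72 h replicate 1 (-0.46, 0.202) or 2 (-0.66, 0.0519).

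ADAMTS-like proteins lack the protease domain and bind matrix. Of the 4 tested, 2 were lower than in untreated cells at both times by adjusted p. Adamtsl3 had 615, 440.4 and 408 normalised reads in untreated cells, 298, 239 and 263 at 12 h and 225 and 216 at 72 h, with the groups in that order and no overlap. Its log2 change was -0.85 at 12 h (SE 0.15, adjusted p = 0.0044) and -1.12 at 72 h (SE 0.17, adjusted p = 0.000696), which fell under 2-fold without untreated replicate 1 (-0.94). For Adamtsl4 the log2 change was -0.64 at 12 h (SE 0.12, adjusted p = 0.00739) and -0.56 at 72 h (SE 0.14, adjusted p = 0.017), where the pass was lost without RA 72 h replicate 2 (-0.45, adjusted p = 0.167).

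Of the tolloid group, which removes procollagen C-propeptides and activates lysyl oxidase, only Tll1 passed the test. Tll1 had 284, 298 and 274 normalised reads in untreated cells, 259, 237 and 248 at 12 h, and 130.0 and 137 at 72 h. Both values at 72 h lay below every value of the other groups. Its log2 change was -1.09 at 72 h against untreated (SE 0.13, adjusted p = 7.74e-05) and -0.89 against 12 h (SE 0.13, adjusted p = 0.000959), while at 12 h it was -0.20 (95% interval -0.44 to 0.04). Bmp1, the prototype of the group, had a log2 change of 0.10 at 12 h (-0.15 to 0.35) and -0.10 at 72 h (-0.38 to 0.19). Tll2 had -0.23 (-0.70 to 0.25) and -0.15 (-0.69 to 0.38).

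Mme encodes neprilysin, a membrane peptidase that degrades small signalling peptides. Its normalised reads were 389, 404 and 430.1 in untreated cells, 301, 255 and 300.1 at 12 h, and 132 and 116.5 at 72 h. The groups did not overlap, and values fell in the order untreated, RA 12 h, RA 72 h. Mme was lower at 12 h (log2 change -0.52, SE 0.12, adjusted p = 0.0243), lower still at 72 h (3.27-fold, log2 change -1.71, SE 0.13, adjusted p = 2.69e-06), and fell by 1.19 from 12 h to 72 h (SE 0.13, adjusted p = 0.000172). The pass at 12 h was lost without untreated replicate 1 (-0.55, adjusted p = 0.0693) or 2 (-0.52, 0.0596) or RA 12 h replicate 1 (-0.56, 0.0624) or 2 (-0.44, 0.166), while both calls at 72 h held with each library left out.

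None of the 4 inhibitors tested reached a 2-fold change. Timp3, which binds to the matrix and inhibits ADAMs and ADAMTS proteases as well as MMPs, had 14116.5, 12578 and 13471 normalised reads in untreated cells, 8647, 9819 and 9354 at 12 h and 12091 and 12493 at 72 h. It was lower at 12 h without overlap (log2 change -0.53, SE 0.10, adjusted p = 0.00681), except without RA 12 h replicate 1 (-0.48, adjusted p = 0.0568), and at 72 h its log2 change was -0.12 (95% interval -0.37 to 0.12). Timp1, a secreted inhibitor of most MMPs, had 10073, 14116.5 and 7606 normalised reads in untreated cells, 4677.5, 5257 and 7725.5 at 12 h, and 5097 and 7303 at 72 h. Untreated and 12 h values overlapped in 1 library, and the log2 changes were -0.84 at 12 h (SE 0.22, adjusted p = 0.0547) and -0.75 at 72 h (SE 0.25, adjusted p = 0.0756). Without untreated replicate 3 or RA 12 h replicate 3, Timp1 was called lower at 12 h (-1.05 in both cases, adjusted p = 0.00315 and 0.0192). Each of these libraries was the only one of its group on its side of the axis described above. Within the sides, the log2 change of Timp1 at 12 h was smaller, -0.63 and -0.62.

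Timp2, which also takes part in pro-MMP2 activation by MMP14, had a log2 change of -0.15 at 12 h (95% interval -0.43 to 0.13) and -0.25 at 72 h (-0.57 to 0.06). Reck, a membrane-anchored inhibitor, had -0.16 (-0.44 to 0.12) and -0.06 (-0.38 to 0.25). Timp4 was near the floor of the table, with a mean of 2.58 normalised reads, and was not tested.

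**Figure D4:**
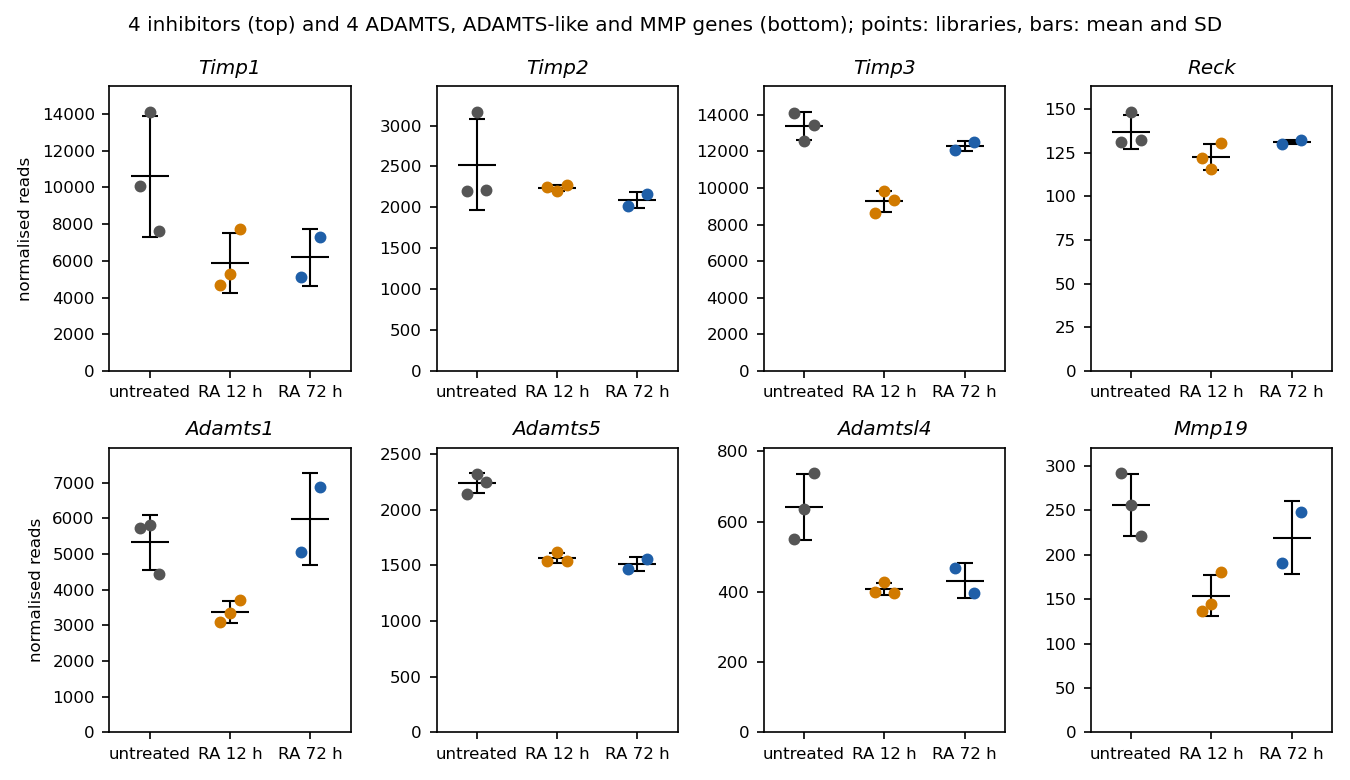
Normalised reads (y axis, from 0) of Timp1, Timp2, Timp3 and Reck (top) and of Adamts1, Adamts5, Adamtsl4 and Mmp19 (bottom) in untreated, RA 12 h and RA 72 h libraries; points are libraries and bars the group mean and SD. Timp3, Adamts1 and Mmp19 are lowest at 12 h, Adamts5 and Adamtsl4 are lower at both times, and Timp1 is spread widely in untreated cells.

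Genes that act with these proteases were read from 5 lists of the plasminogen system, proprotein convertases, sheddase and MMP regulators, cathepsins with cystatins, and other matrix-degrading enzymes. Of 39 tested, 0 were called at 12 h (1.42% of all genes were), and by adjusted p alone 2 were higher and 1 lower, together 3 where 4.37% of all genes passed. At 72 h 2 were called and both rose (5.13%, beside 3.67% of all genes called and 2.15% called higher). Between 72 h and 12 h 1 was called, lower at 72 h (2.56%, beside 1.5% called and 0.734% called lower). With counts this small, the difference from the shares over all genes was not tested. Plau, the urokinase that makes plasmin, an activator of pro-MMPs, had means of 606 ± 55.3, 1176 ± 119 and 1504 ± 111 normalised reads (SD, n = 3, 3 and 2), with log2 changes of 0.96 at 12 h (SE 0.11, adjusted p = 0.000121) and 1.31 at 72 h (SE 0.12, adjusted p = 1.32e-05). Pcsk6, a proprotein convertase, rose by 1.20 on the log2 scale at 72 h (SE 0.15, adjusted p = 0.000166). Serpine2, an inhibitor of urokinase and thrombin, was lower at 72 h than at 12 h (log2 change -1.03, SE 0.24, adjusted p = 0.0203).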

How the data were processed

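Expression was measured in 8 libraries. The labels describe short tags beside DpnII sites, whereas the study's methods describe fragmented RNA aligned with Tophat to mm9, quantified with Cufflinks, converted to read counts and normalised with a Bioconductor package for counts. The authors deposited normalised reads per gene, listed as a score here. They were written with decimal commas, which were read as decimal points. All 8 columns held the same sorted values, from 1 to 165593 with a total of 9442018.6, so the authors had quantile normalised them. These are not counts, depth is unknown, and no counting interval can be given. Deposited group averages and log2 ratios of the authors were not used.

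Values were taken as log2(value + 1), and fold changes, which understate low genes, are on this scale. The 12673 genes with a mean of at least 10 were fitted with limma (version 3.58.1, R 4.3.3) in 1 model of the 3 groups with a variance trend. P-values were two-sided, adjusted by Benjamini-Hochberg over these genes. Genes were called at an adjusted p below 0.05 and at least 2-fold. The procedure was tested on simulated data. Named were members called or past the adjusted p, the 10 highest by mean, and Timp1 to Timp4, Reck, Bmp1, Tll1, Tll2 and Mme, 26 in all; partner genes were named when called. Members and lists were chosen with earlier results of these data known. Coordinates of genes are 1-based on mm9, in whose annotation all 86 members were found. Promoters came from RefSeq, where 53 members matched by symbol. Alternatives changed the pseudocount, filter, scaling, call rule, variance model, samples and block.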

Additional observations from a re-analysis of the deposited data

Results flagged for a closer look

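For 4 members the change differed at least 2-fold between the 2 times of RA with an adjusted p below 0.05 in the limma test of 72 h against 12 h, which is the test of the difference between the changes from the shared untreated libraries. The change at 72 h less that at 12 h was 1.24 for Adamts9 (adjusted p = 0.00494), -1.19 for Mme (0.000172), -2.43 for Mmp10 (0.000448) and -1.26 for Mmp3 (4.26e-05), all on the log2 scale. For each of them all RA 72 h libraries lay on 1 side of all RA 12 h libraries, as for 37.3% of all genes tested. The 4 were picked by a test on the same libraries, so this adds nothing to it. Tll1 (-0.89, adjusted p = 0.000959) and Adamts1 (0.81, 0.00725) passed the adjusted p in that test without reaching 2-fold. Time in culture changed with the time of RA.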

How the results depend on the processing

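Of 14 calls of single members, 7 were kept under each of the 17 other settings run. The count at 12 h was 4; it was 2 with each of a pseudocount of 10, a minimum mean of 20 and no filter, 12 by adjusted p alone and 1 to 6 with a library left out (1 without RA 12 h replicate 1, 2 without RA 12 h replicate 2). The count at 72 h was 6, with 11 by adjusted p alone and 4 to 9 with a library left out (9 without untreated replicate 3). The count for 72 h against 12 h was 4, with 3 to 5 when a library was left out. The cause was not tested, except that stricter filters test fewer genes (Mmp1b and Adam8 have means below 20). For Mmp1b at 12 h the value was 0.88 with a pseudocount of 10, under 2-fold, and its adjusted p was 0.0539 without a filter. For Adam8 at 12 h the value was -0.95 with a pseudocount of 10, and its adjusted p was 0.109 without a filter and 0.0653 without a variance trend. Subtracting a read background in proportion to genomic span, chosen after seeing the data, gave counts of 3, 7 and 5, with Tll1 called from 12 h to 72 h (-1.03) and Adam8 at 12 h lost (-1.62, adjusted p = 0.0638).

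Direction turned only in values that passed no test. With the side as a term, Adam10 at 12 h was -0.01 and Timp1 from 12 h to 72 h was -0.02. With a library left out, the log2 change at 12 h ran from -0.04 to 0.06 for Adam10, -0.18 to 0.02 for Adam9, -0.17 to 0.02 for Mmp11 and -0.24 to 0.02 for Timp2. At 72 h it ran from -0.06 to 0.38 for Adamts1, -0.28 to 0.09 for Bmp1, -0.10 to 0.03 for Mmp14, -0.04 to 0.09 for Mmp3 and -0.29 to 0.05 for Tll2. From 12 h to 72 h it ran from -0.04 to 0.19 for Adamtsl4, -0.17 to 0.35 for Timp1 and -0.06 to 0.29 for Tll2.

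Correlations of same-numbered deviations ran from -0.474 to 0.42, which gave no sign that replicate numbers paired the samples. They cannot exclude pairing, since deviations were centred within groups of 3 or 2 libraries and 1 axis held 50.1% of the within-group variance. With the replicate number as a block the counts were 3, 6 and 4, and Adam8 at 12 h was lost (adjusted p = 0.069). Passes by adjusted p alone that the block ended were Adamts14 at 12 h (0.108) and 72 h (0.0881), Mme at 12 h (0.0539), and Adamts10 (0.07) and Adamtsl4 (0.0726) at 72 h. Without a variance trend those of Adamts1 (0.0917), Adamts14 (0.0604), Mme (0.0619) and Mmp19 (0.0664) at 12 h, of Adamtsl4 at 72 h (0.0599) and of Adamts1 from 12 h to 72 h (0.0584) were lost, and with only the groups compared those of Adamts14 at 12 h (0.0675) and 72 h (0.0648), Adamts10 (0.0587) and Adamtsl4 (0.0522). Without a filter Adamts14 was lost at both times (0.118 and 0.0624), and at 12 h also with background subtracted (0.073). Levels near the floor of 1, as for Mmp1b, and the unknown depth limit what low members can show.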
